A study of Drosophila melanogaster with 6 samples.

Results

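The sex determination cascade of Drosophila melanogaster is described here through 10 genes chosen by name from the literature on the cascade: Sxl, tra, tra2, dsx, fru, ix, her, snf, vir and fl(2)d. All 10 were found among the 15682 gene identifiers of the deposited count tables, and all 10 passed the filter on low counts that left 8941 genes for testing. RNA-seq measured their transcripts in midguts, the digestive middle section of the intestine, dissected from virgin adults of the laboratory strain w1118 that were aged 15 days and kept at 29 °C. There were 3 libraries from female midguts and 3 from male midguts, each from 30 pooled midguts, and no other genotype or treatment was used.

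In this cascade the RNA-binding protein Sxl is made in animals with a pair of X chromosomes and directs the female splicing of its own pre-mRNA and of tra. Tra protein, with its partner Tra2, then directs the female splicing of dsx and fru. Both genes code for transcription factors, and that of dsx has a female and a male form. Males also transcribe Sxl and tra, but their transcripts keep exon sequence that stops the reading frame early. In the adult gut the cascade is known for setting differences between the sexes in organ size and stem cell division. Most of this control acts through splicing, whereas the deposited values are summed over each gene. The current annotation of assembly BDGP6 lists 25 transcripts for Sxl, 15 for fru, 7 each for dsx and tra2 and 2 for tra, and the values below do not separate them.

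Library totals ranged from 23825935 to 38406746 counts, and levels are given as CPM, counts scaled to a library total of 1000000. A count of 3, the limit that a count of 0 allows, stood for 0.0781 to 0.126 CPM, and this limit and the Poisson intervals below take in counting error alone. The least counted member in any library was fru, with 198 counts in female replicate 2, where counting error alone is 7.11%. The labels matched the sex-specific RNA of dosage compensation: roX1, a noncoding RNA of the male X chromosome complex, stood at 0.207 to 0.781 CPM in female libraries and at 488 to 706 CPM in male libraries. All 5 enterocyte markers were found in every library, with a summed level of 41894 to 55647 CPM in female libraries and 37358 to 45690 CPM in male libraries. Male replicate 3 stood apart from the other libraries in RNA of the male reproductive tract. It had more than 3 counts for 14 of 15 accessory gland genes and 17 of 20 testis genes, against 1 to 3 and 2 to 7 in the other libraries, and at 71.0 CPM it had the highest summed accessory gland level of the 6. Results of the members that rest on this library are therefore also given without it.

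Of the 10 genes, 1 was higher in female midguts and 0 were higher in male midguts by edgeR's quasi-likelihood test at a Benjamini-Hochberg adjusted p under 0.05. The gene was Sxl, and it was also the only member at an unadjusted p under 0.05, where 21% of all tested genes stood. Over all tested genes 3.87% were called higher in females and 5.53% higher in males, 9.39% together, so the share of members called lay near the background. DESeq2 called dsx besides Sxl, where 13.5% of all genes were called and 7.35% were higher in males, and limma-voom called Sxl alone. Without male replicate 3, edgeR called dsx higher in males as well, and 9.84% of all genes were called and 5.63% were higher in males. The median log2 fold change of the members, female over male, was -0.01, and that of all tested genes was -0.02. The library values of the sexes did not overlap for 2 members, Sxl and tra, beside 26.2% of all tested genes. In these bulk samples, fewer cells of a type and less RNA per cell cannot be told apart.

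**Figure D1:**
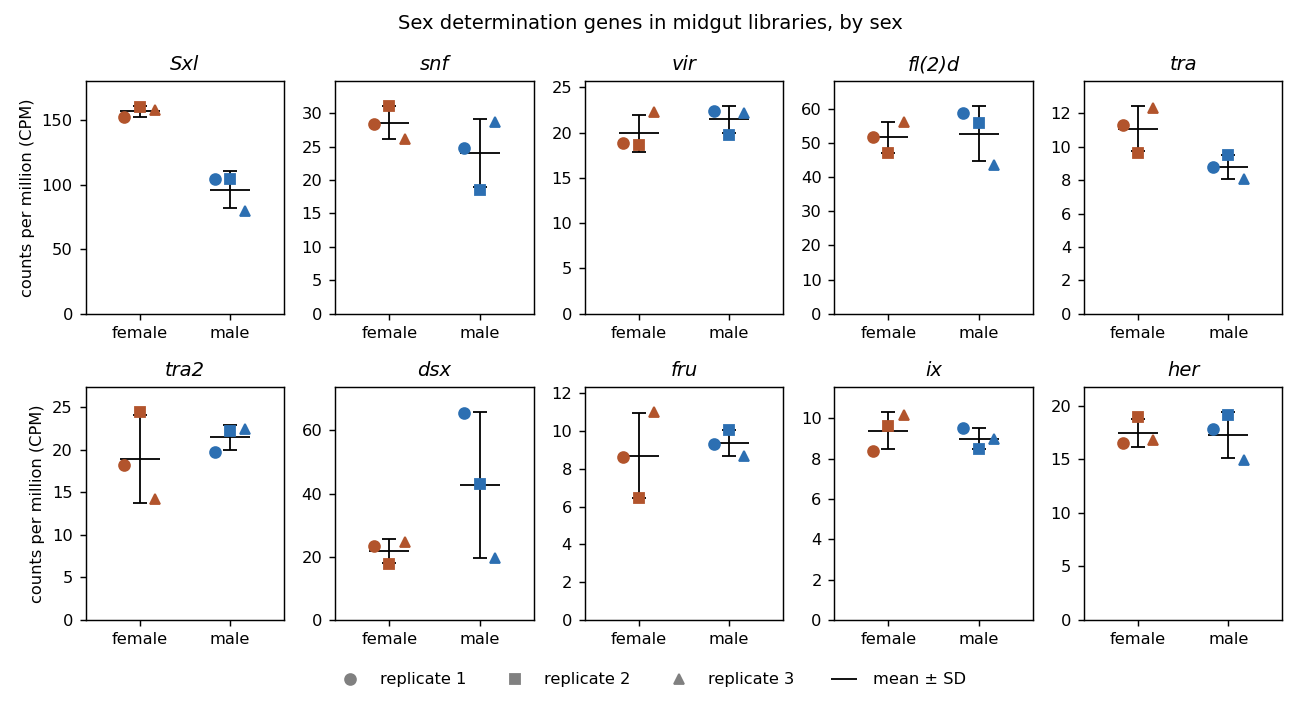
Level of each of the 10 genes in CPM (vertical axes, each starting at 0) in the 3 female libraries (left, brown) and the 3 male libraries (right, blue), with symbols for the replicate and bars for mean ± SD. The sexes are fully separated for Sxl and tra, and the male dsx values run from 19.5 to 65.7 CPM.

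Sxl, the X-linked switch gene, had 153, 161 and 158 CPM in female replicates 1 to 3, against 104, 105 and 80.0 CPM in male replicates 1 to 3. Every female library lay above every male library, and the female values were the tighter ones, with a coefficient of variation of 2.64% in females and 14.7% in males. The mean was 157 ± 4.15 CPM in females and 96.3 ± 14.2 CPM in males (SD, n = 3 each), a 1.63-fold difference whose 95% interval ran from 1.32-fold to 2.02-fold. On the log2 scale this was 0.71 ± 0.14 (SE, edgeR adjusted p = 0.00898), rank 401 among the p-values of all tested genes. The call held in all 14 alternatives, with log2 values of 0.59 to 0.78 and adjusted p of 5.12e-05 to 0.0396, and the lowest of these log2 values, 0.59, came without male replicate 3 (edgeR adjusted p = 0.0135). The biological coefficient of variation fitted to Sxl was 14.8%, and 85.2% of tested genes had a higher one. Of the 1432 tested genes on the X chromosome 5.59% were higher in females, and their median log2 fold change was 0.05.

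Marker genes of other cell types were read beside Sxl. The summed level of 10 enteroendocrine genes was 531 to 642 CPM in female libraries and 781 to 957 CPM in male libraries. edgeR called 4 of the 10 higher in males, AstA, CCHa1, CCHa2 and Tk, against 5.53% of all tested genes. CCHa2 had the largest gap in CPM, with a mean of 178 CPM in females and 347 CPM in males. The means were nearly equal for NPF, at 56.9 and 56.7 CPM, and for Mip, at 5.83 and 5.82 CPM. DESeq2 called 4 of the 10 and limma-voom 3. The fat body list, all 10 of whose genes were in the tables, summed to 55.9 to 293 CPM in female libraries and 15.7 to 30.7 CPM in male libraries, and its gene Fbp1 was at 0 in all 6. edgeR called 0 of its 6 tested genes, and 3 were at an unadjusted p under 0.05, against 21% of all tested genes. DESeq2 called 2, against 13.5% of all genes, and limma-voom 1. The 3 were the yolk protein genes Yp1, Yp2 and Yp3, which share the same high library, female replicate 1. These 3 genes made up most of the female sums. The other 7 genes summed to 27.5, 17.6 and 8.25 CPM in female libraries, against 13.4, 20.4 and 18.6 CPM in male libraries, with overlap. The 10 ovary and germline genes summed to 4.51 to 6.79 CPM in female libraries and 6.58 to 15.0 CPM in male libraries, with overlap. bam and the eggshell gene Vm32E were at 0 in all 6, and the oocyte gene osk was at 0 in 2 of the 3 female and 2 of the 3 male libraries. Of the 3 tested genes of this list edgeR called 1, otu, which is needed in oogenesis, against 9.39% of all tested genes. DESeq2 called 1 of the 3 and limma-voom 0. otu had 3.11, 3.14 and 3.74 CPM in female libraries, against 3.91, 11.6 and 8.96 CPM in male libraries (log2 -1.29 ± 0.35, edgeR adjusted p = 0.0437). Its value without male replicate 3 is not given here. grk, an oocyte ligand gene, did not overlap between the sexes either, as for 26.2% of all tested genes. It did not pass (log2 -0.71 ± 0.40, edgeR adjusted p = 0.361). The part of these cell types in the Sxl difference was not tested.

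The 3 splicing cofactors of Sxl were not called by edgeR in either direction. The gene snf codes for a protein of the spliceosomal U1 and U2 particles that Sxl needs in order to control its own splicing. It had 28.5, 31.1 and 26.2 CPM in female libraries, against 24.8, 18.6 and 28.7 CPM in male libraries. Male replicate 3 lay within the female range, and the other male libraries lay below it. The log2 fold change was 0.25 ± 0.17 (adjusted p = 0.486 in edgeR), with a 95% interval from 0.914-fold to 1.54-fold. Without male replicate 3 it was 0.40 (adjusted p = 0.194), its highest value among the alternatives and still not called.

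The genes vir and fl(2)d code for subunits of the complex that writes the N6-methyladenosine mark on mRNA, and both are needed for female splicing of Sxl. vir had 18.8, 18.6 and 22.2 CPM in female libraries, against 22.4, 19.7 and 22.2 CPM in male libraries. fl(2)d had 51.9, 47.2 and 56.2 CPM in female libraries, against 58.8, 56.0 and 43.6 CPM in male libraries. The sexes overlapped for both genes. Their log2 fold changes were -0.11 ± 0.14 and -0.03 ± 0.15 (edgeR adjusted p = 0.765 and 0.953). The 95% intervals, 0.749-fold to 1.15-fold for vir and 0.780-fold to 1.23-fold for fl(2)d, leave out a difference of 1.5-fold in either direction.

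**Figure D2:**
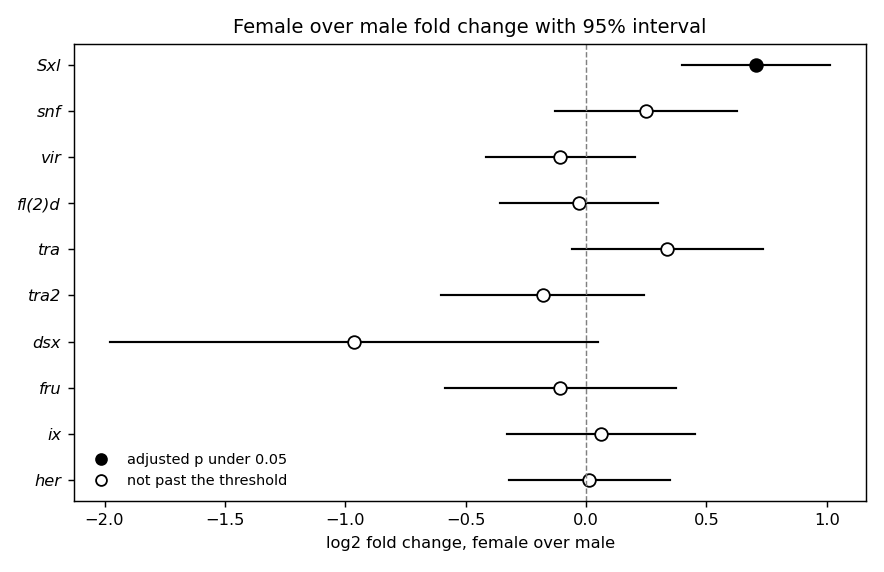
Log2 fold change, female over male, of each gene (horizontal axis) with its 95% interval as a line, ordered by role from Sxl at the top to her at the bottom; the filled point passed an adjusted p under 0.05. Only the interval of Sxl lies wholly to one side of 0, and that of dsx is the widest.

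tra, the direct splicing target of Sxl, had 11.3, 9.64 and 12.3 CPM in female libraries, against 8.79, 9.50 and 8.05 CPM in male libraries. The lowest female library, at 9.64 CPM, lay just above the highest male library, at 9.50 CPM. The log2 fold change was 0.34 ± 0.18 (edgeR adjusted p = 0.332), with a 95% interval from 0.960-fold to 1.66-fold, so the difference did not pass. tra shares 74 of its 862 exon bases with l(3)73Ah on the opposite strand. That gene had 11.2 to 13.2 CPM in female libraries and 12.8 to 13.8 CPM in male libraries. Whether reads were counted by strand is not stated, so the tra values are uncertain.

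tra2, which codes for the partner that Tra needs in order to bind dsx and fru transcripts, had 18.2, 24.4 and 14.2 CPM in female libraries, against 19.7, 22.2 and 22.4 CPM in male libraries. The female values spanned the male ones. The coefficient of variation was 27.3% in females and 6.93% in males, and the log2 fold change was -0.18 ± 0.19 (edgeR adjusted p = 0.691). Without female replicate 2, the highest female library, it was -0.41, the lowest of its alternatives, and was still not called. tra2 overlaps Blos1 on the opposite strand by 7 exon bases.

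dsx, the transcription factor gene at the end of the somatic branch, had 23.3, 17.6 and 24.6 CPM in female libraries, against 65.7, 43.0 and 19.5 CPM in male libraries. Male replicates 1 and 2 lay above every female library, and male replicate 3 lay within the female range. The highest male library was 3.37-fold above the lowest, while the highest female library was 1.40-fold above the lowest. The exact Poisson 95% intervals, for counting error alone, were 62.9 to 68.6 CPM in male replicate 1, 40.8 to 45.3 CPM in male replicate 2 and 18.1 to 20.9 CPM in male replicate 3. The coefficient of variation of dsx in males, 54.1%, was larger than that of 94.5% of tested genes.

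With all libraries, dsx averaged 21.9 ± 3.71 CPM in females and 42.7 ± 23.1 CPM in males (SD, n = 3 each), with a log2 difference of -0.97 ± 0.42 (edgeR adjusted p = 0.260; DESeq2 adjusted p = 0.0359). The 95% interval ran from 0.254-fold to 1.03-fold. Single male libraries decided the value. Without male replicate 3 it was -1.31 (edgeR adjusted p = 0.00289) and without male replicate 1 it was -0.50 (edgeR adjusted p = 0.454), and it stayed negative in all 14 alternatives. Male replicate 3, the library with low dsx, was the one with the most testis and accessory gland RNA, and the part of that RNA in its dsx level was not tested. The 8 muscle markers summed to 574 to 1435 CPM in female libraries and to 1215, 1570 and 767 CPM in male replicates 1 to 3. The 7 neuron markers summed to 20.8 to 26.8 CPM in female libraries and to 27.4, 30.2 and 19.3 CPM in male replicates 1 to 3. On both lists male replicate 3 was the lowest male library and male replicate 2 the highest, and no gene of either list was at 0 in all 6. Their part in the dsx spread was not tested. dsx shares 169 of its 9167 exon bases with lds on the opposite strand, a gene at 5.39 to 8.33 CPM in female libraries and 4.17 to 5.65 CPM in male libraries.

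**Figure D3:**
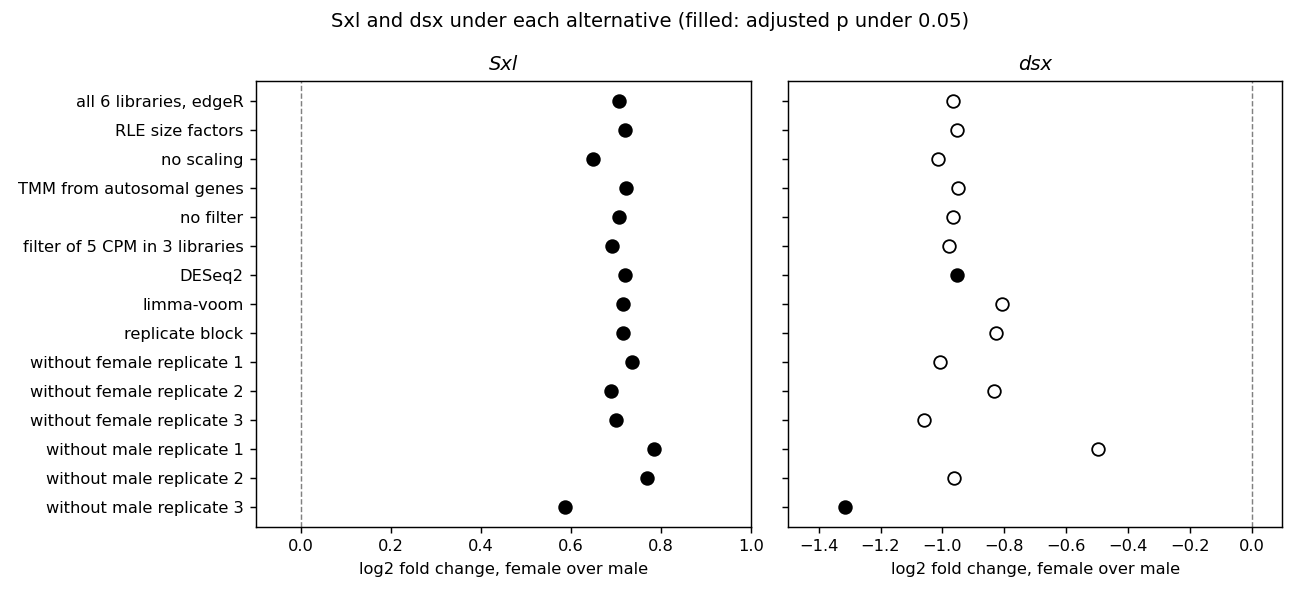
Log2 fold change, female over male, of Sxl (left) and dsx (right) with all libraries and under each of 14 alternatives, listed down the page; filled points passed an adjusted p under 0.05. Sxl stays between 0.59 and 0.78 and is filled throughout, and dsx runs from -1.31 to -0.50 and is filled under DESeq2 and without male replicate 3.

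fru, a zinc finger transcription factor gene known for its male form in neurons that control courtship, was at 8.62, 6.47 and 11.01 CPM in female libraries, against 9.34, 10.1 and 8.70 CPM in male libraries. The sexes overlapped, at -0.11 ± 0.22 on the log2 scale (adjusted p = 0.869 in edgeR) and with a 95% interval from 0.666-fold to 1.30-fold. ix codes for a Mediator subunit that acts with the female form of Dsx. It had 8.37, 9.64 and 10.2 CPM in female libraries, against 9.53, 8.50 and 8.96 CPM in male libraries. her codes for a zinc finger protein needed early for Sxl and later, beside dsx, for female differentiation. It had 16.5, 19.0 and 16.8 CPM in female libraries, against 17.8, 19.1 and 14.9 CPM in male libraries. The sexes overlapped for both. The log2 fold changes of ix and her were 0.06 ± 0.18 and 0.01 ± 0.15 (edgeR adjusted p = 0.910 and 0.979). Their 95% intervals ran from 0.797-fold to 1.37-fold and from 0.800-fold to 1.27-fold.

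Levels were compared between genes only after division by exon length, as CPM per kilobase of the union of annotated exons in BDGP6. On that scale snf was the highest member in both sexes, at 34.2 ± 2.93 in females and 28.8 ± 6.14 in males, above 80.6% of tested genes with a length in females and 77.6% in males. fl(2)d followed at 17.4 ± 1.52 in females and 17.7 ± 2.72 in males. Sxl stood at 17.1 ± 0.451 in females, where its libraries overlapped those of fl(2)d, and at 10.5 ± 1.54 in males, where they lay wholly below fl(2)d. In females ix, tra and tra2 came next at 12.9, 12.9 and 10.3, each overlapping its neighbour in that order, and tra2 also overlapped her at 7.34. In males ix, tra2, Sxl and tra, at 12.4, 11.6, 10.5 and 10.2, likewise overlapped neighbour by neighbour. her had 7.27 in males.

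The lower end of the order held vir at 3.39 ± 0.346 in females and 3.66 ± 0.254 in males and dsx at 2.39 ± 0.405 in females and 4.66 ± 2.52 in males. In females every vir library lay above every dsx library, and in males the dsx libraries overlapped those of vir and her. fru was last at 0.472 ± 0.123 in females and 0.508 ± 0.0367 in males, below the other members in every library of either sex. The median of all 8573 tested genes with a length was 8.32 in females and 8.10 in males. Scaling by the longest transcript in place of all exons gave Sxl 26.3 in females and 16.2 in males, above fl(2)d in females (20.2) and below it in males (20.6), and gave fru 1.04 and 1.11, still the lowest.

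**Figure D4:**
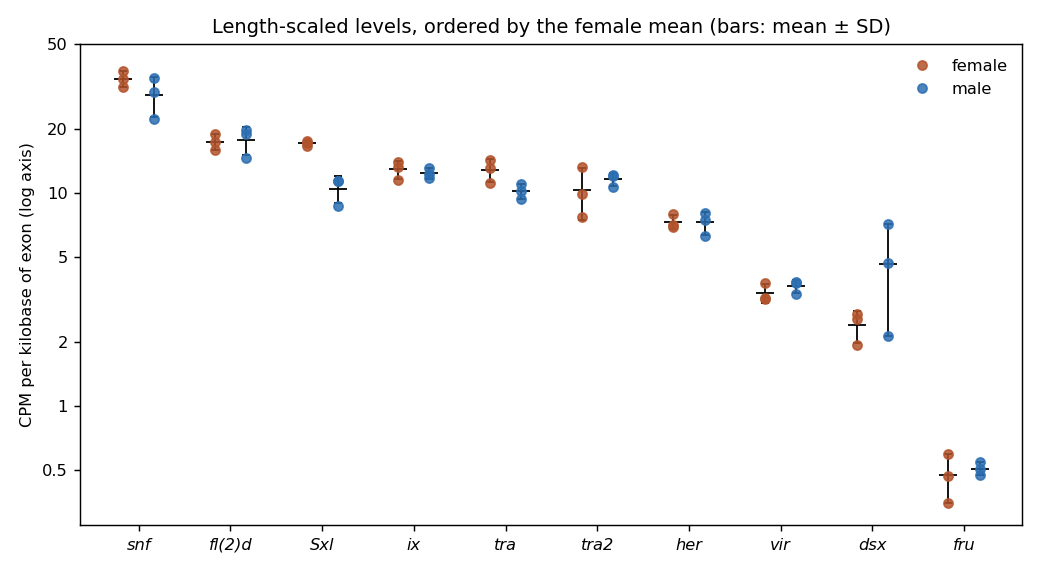
Level of each gene in CPM per kilobase of exon (log axis) in single libraries, female (brown, left of each pair) and male (blue), with bars for mean ± SD and genes ordered by the female mean. snf is highest and fru lowest in both sexes, and Sxl and dsx show the widest gaps between the sex means.

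The wider pathway was read from lists of genes named for their roles. The m6A list, the 9 writers and readers of N6-methyladenosine, held 0 genes called by edgeR, DESeq2 or limma-voom and 0 at an unadjusted p under 0.05. Over all tested genes, edgeR called 9.39%, DESeq2 called 13.5% and 21% were at an unadjusted p under 0.05. The log2 fold changes of the m6A list lay between -0.21 for Hakai, a ubiquitin ligase of the complex, and 0.07 for Ythdf, a reader. Mettl3, the catalytic subunit, had 4.35 to 6.60 CPM in female libraries and 5.52 to 6.22 CPM in male libraries (edgeR adjusted p = 0.761). Of 9 genes in the list of Sxl and its partners, edgeR called Sxl itself, against 9.39% of all tested genes. The other 8 were not called, the member snf among them. The splice site factor gene U2af50 had 42.4 to 48.5 CPM in female libraries and 33.0 to 39.7 CPM in male libraries, with no overlap (log2 0.33 ± 0.14, edgeR adjusted p = 0.189). ssx, a paralog of Sxl, was at -0.22 ± 0.14 on the log2 scale (adjusted p = 0.454 in edgeR), with 52.7 to 63.5 CPM in female libraries and 56.5 to 73.5 CPM in male libraries.

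Among 10 genes in the tables from the signal that counts X chromosomes in the embryo, 5 were tested, the member her among them. edgeR called 1 of the 5 toward females and 0 toward males, against 3.87% and 5.53% of all tested genes. emc, which codes for a helix-loop-helix protein that blocks DNA binding of its partners, had 123, 105 and 140 CPM in female libraries, against 77.7, 66.9 and 57.6 CPM in male libraries. The sexes did not overlap (log2 0.87 ± 0.15, edgeR adjusted p = 0.00507), and the call held in all 14 alternatives. The corepressor gene gro and the Janus kinase gene hop had log2 fold changes of 0.15 ± 0.16 and -0.14 ± 0.15 (edgeR adjusted p = 0.689 and 0.714). The embryonic signal genes sc, sisA, run and upd1 and the repressor gene dpn were not tested: their levels were 0 to 0.340 CPM in female libraries and 0 to 0.518 CPM in male libraries, and upd1 had 0 counts in all 6.

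Of the transcripts that Sxl protein is known to bind, 4 were tested. The sexes did not overlap for any of the 4, as for 26.2% of all tested genes. edgeR called 2 of them, msl-2 and the member Sxl, against 9.39% of all tested genes. msl-2, whose translation Sxl blocks in females, had 9.24, 8.92 and 9.24 CPM in female libraries, against 27.2, 27.7 and 24.2 CPM in male libraries (log2 -1.53 ± 0.14, edgeR adjusted p = 0.00011). N, the X-linked Notch receptor gene, had 4.22, 3.27 and 6.22 CPM in female libraries, against 7.86, 6.82 and 7.24 CPM in male libraries, and did not pass (log2 -0.68 ± 0.26, edgeR adjusted p = 0.150). Sxl and tra, given above, are the others. Sxl was therefore called toward females and msl-2 toward males in this list, and N and tra were not called.

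Of 7 tested genes in the list of Tra, Tra2 and their SR protein partners, which bind exon sequence and recruit the spliceosome, 0 were called by edgeR, DESeq2 or limma-voom and 0 were at an unadjusted p under 0.05. Over all tested genes, edgeR called 9.39%, DESeq2 called 13.5% and 21% were at an unadjusted p under 0.05. Of 27 tested Mediator subunit genes, ix among them, 0 were called by edgeR, DESeq2 or limma-voom, beside the same shares. At an unadjusted p under 0.05 there was 1, against 21% of all tested genes. That gene was MED18 (log2 0.62 ± 0.22, edgeR adjusted p = 0.123), and the median log2 value of these genes was -0.01. MED30 and kto, a gene of the kinase module, followed with log2 fold changes of 0.34 ± 0.20 and 0.23 ± 0.13 (edgeR adjusted p = 0.391 and 0.399). Of 4 tested genes for Fru and its cofactors 0 were called by edgeR, DESeq2 or limma-voom, beside the same shares over all tested genes. At an unadjusted p under 0.05 there was 1, against 21% of all tested genes. It was the histone deacetylase gene HDAC1 (log2 -0.46 ± 0.17, edgeR adjusted p = 0.133). Without male replicate 1 HDAC1 was called (log2 -0.61, edgeR adjusted p = 0.0178). The cofactor gene bon was at -0.16 ± 0.14 (adjusted p = 0.617).

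**Figure D5:**
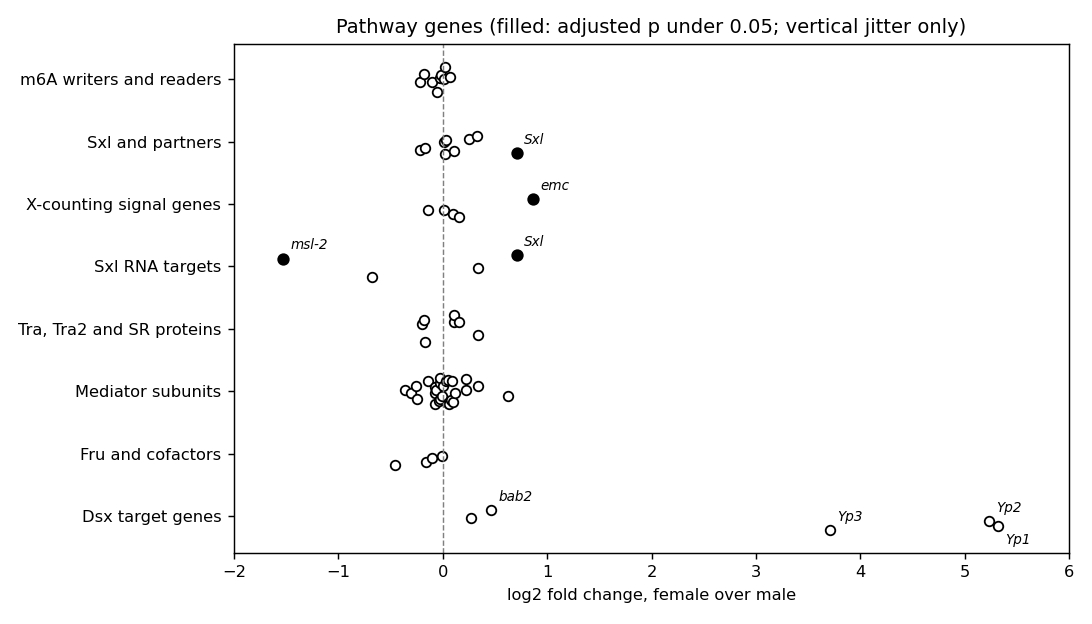
Log2 fold change, female over male (horizontal axis), of every tested gene of 8 pathway lists (rows), with filled points for an adjusted p under 0.05 and vertical jitter that carries no value. Sxl, emc and msl-2 are the filled genes, and the yolk protein genes lie farthest to the right without passing.

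dsx was the only tested member of the 4 DM-domain genes. Its relatives dmrt93B and dmrt99B had 0 counts in all libraries, and dmrt11E had 0.207 to 0.306 CPM in female libraries and 0.160 to 0.260 CPM in male libraries. Genes that Dsx controls in other tissues were also measured. Of 5 tested, 0 were called by edgeR, although 4 were at an unadjusted p under 0.05, against 21% of all tested genes, 3 were called by DESeq2, against 13.5%, and 1 by limma-voom. The 3 yolk protein genes among these share the same high library and are not independent members. The yolk protein gene Yp3 had 65.4, 16.5 and 10.7 CPM in female libraries, against 2.18, 3.38 and 1.54 CPM in male libraries. Yp1 had 145, 24.9 and 23.2 CPM in female libraries, against 0.0963, 4.72 and 0.0521 CPM in male libraries. Yp2 had 55.7, 13.1 and 13.8 CPM in female libraries and 0, 2.22 and 0 CPM in male libraries. No female library overlapped a male one for any of the 3, as for 26.2% of all tested genes. Female replicate 1 was several times the other females. With all libraries the edgeR adjusted p was 0.0824 for Yp3, 0.219 for Yp1 and 0.184 for Yp2. Yp3 was called in 4 of 14 alternatives: without female replicate 1 (log2 2.54, edgeR adjusted p = 0.0032), without female replicate 3 (log2 4.12, edgeR adjusted p = 0.0423), by DESeq2 (adjusted p = 0.00013) and by limma-voom (adjusted p = 0.0469). Yolk proteins are made in the fat body, whose other listed genes are given above with Sxl, and the part of fat body RNA in these values was not tested.

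bab2, a transcription factor gene that Dsx controls in the abdomen, had 112, 90.7 and 116 CPM in female libraries, against 83.4, 79.9 and 68.2 CPM in male libraries. The sexes did not overlap, as for 26.2% of all tested genes, but the difference did not pass in edgeR (log2 0.46 ± 0.14, adjusted p = 0.0673). It passed in DESeq2 (adjusted p = 0.0222), the only 1 of 14 alternatives that called bab2. bab1, the remaining tested gene of the list, had 1.63 to 4.27 CPM in female libraries and 1.87 to 3.17 CPM in male libraries. The sexes overlapped for bab1 (log2 0.27 ± 0.42, edgeR adjusted p = 0.807).

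The genes most like Sxl and dsx across the 6 libraries were picked by Pearson's r of log2 CPM among 5625 tested genes with a mean of at least 10 CPM. The points share their libraries and fall into the sexes, so the values are descriptions. For Sxl these were the gene FBgn0029704, which has no symbol in the table used (r = 0.998), the phosphatase gene Pp1-87B (0.989), the coactivator gene srl (0.985), the mitochondrial transport gene Miro (0.983) and CG8064 (0.983). Their log2 fold changes, 0.26 to 0.55, were smaller than that of Sxl, and only srl passed (edgeR adjusted p = 0.0444). It no longer passed in any of the 6 fits that left out a library (adjusted p of 0.0608 to 0.147). For dsx they were the zinc finger gene bowl (r = 0.992), corn (0.991), CG3277 (0.986), AhcyL1 (0.982) and the phosphatase subunit gene wdb (0.978). None of these passed with all libraries, and their log2 fold changes lay between -0.37 and -0.12. bowl had 47.3, 45.9 and 49.2 CPM in female libraries, against 63.1, 56.8 and 47.4 CPM in male libraries, the same order among males as dsx over a narrower range. corn was called without male replicate 3 (log2 -0.52, edgeR adjusted p = 0.0394), the library whose absence also gave the dsx call. Both bowl and corn were picked for their likeness to dsx over these same 6 libraries. The shared order of bowl and the shared call of corn therefore follow from how they were picked and are no separate result.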

How the data were processed

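Per the submitters' processing notes, reads were processed with TopHat2 2.0.11 and HTSeq on genome build dm3; which annotation release and strand setting they used, and how reads with several matches were handled, is not given in the sources used here. Per the labels' protocols, the libraries were strand-marking mRNA libraries. The deposited files hold the authors' raw counts of reads per gene, not normalized. Nothing in the labels says that replicates came from separate cultures, and the p-values rest only on how far these samples differ, which may be technical.

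Symbols came from a gene name table (15002 of 15682 identifiers matched), and chromosome arms, exon lengths and exon overlaps from the Ensembl annotation of BDGP6; no coordinates are given because the builds differ. Several listed genes whose identifiers found no match in the tables, and sequences of the genes, were not analysed here.

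With R 4.3.3, genes were kept by filterByExpr (minimum count 10, minimum total 15), scaled by TMM and tested in edgeR 4.0.16 by quasi-likelihood (sex alone, robust, 6 libraries, two-sided, Benjamini-Hochberg over all tested genes). CPM values are scaled by TMM. Fold changes are female over male, each standard error is the size of the log2 value divided by the square root of F, and 95% intervals are unadjusted and use the t distribution. Exact Poisson intervals cover counting error only. Alternatives were RLE factors, no scaling, factors from autosomal genes, all genes with at least 1 count, genes at 5 CPM or more in 3 libraries, DESeq2 1.42.0, limma-voom 3.58.1, a replicate block, leaving out each library, an adjusted p under 0.01 and, for length-scaled levels, the longest transcript.

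No 2 replicates were copies of one library: their counts differed beyond sampling noise, with chi-square values of 30.6 or more per degree of freedom. The edgeR test was checked on simulated counts with known changes in 200 of 8941 genes. It recovered 24% of 1.5-fold, 52% of 2-fold, 94% of 4-fold and 90% of 8-fold changes. Of its 139 calls, 9 were of unchanged genes.

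The members and lists were chosen with earlier results of these data known. Genes named are the members; per pathway list every called gene and the 3 with the smallest p; genes sharing exon sequence with a member; and the 5 genes most like Sxl and dsx (log2 of CPM plus 0.5). One result that the rule would name is not reported here. Yp1, bab1, Ythdf, the untested genes of short lists and single marker genes were named after their values were seen. The fat body list was also summed without the yolk protein genes after their values were seen.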

Additional observations from a re-analysis of the deposited data

How the results depend on the processing

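Of 140 recomputed values of the members (14 alternatives each), 130 kept their direction and their side of the threshold. The members higher in males numbered 0 with all libraries and 1, dsx, with DESeq2; over fits that left out a library they ranged from 0 to 1. The 8 reversed signs belonged to her, fl(2)d and fru, none of them called. her was at -0.046 with no scaling and -0.00035 with a filter of 5 CPM, and when a library was left out her ranged from -0.082 to 0.091, fl(2)d from -0.15 to 0.071, fru from -0.31 to 0.067 and Hakai from -0.41 to 0.016. Over all genes, edgeR called 346 toward females and 494 toward males; DESeq2 called 552 higher in females, an adjusted p under 0.01 left 136 and 276, and fits without a library gave 164 (without male replicate 2) to 419 (without male replicate 1) higher in females, with 171 without female replicate 1 and 219 without female replicate 3. The cause of these changes was not tested, beyond the smaller number of libraries and the stricter threshold themselves.

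Replicate numbers did not pair the libraries: deviations of same-numbered libraries correlated at -0.276 to -0.105, and 0 of 3 female libraries correlated best with the male library of its number. With the replicate block, Sxl was at 0.72 on the log2 scale (adjusted p = 0.0222 in edgeR), the members called toward females and males stayed at 1 and 0, and 261 genes were called toward females and 415 toward males. The median standard error of a log2 fold change was 0.19 over all tested genes, so small differences in the uncalled members may not be detectable with 3 libraries a sex. In the simulated counts 52% of 2-fold changes were called, so an uncalled member may also differ by that much where its interval allows it. Among the uncalled members only the unadjusted 95% interval of dsx, 0.254-fold to 1.03-fold, reaches a 2-fold difference.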
